A study of Mus musculus with 75 samples.

Results

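CTCF-cohesin loops that could already be called by ana/telophase were described in mouse G1E-ER4 cells. A loop was taken from the late-G1 loop list if its anchors lay less than 500 kb apart and each anchor overlapped a late-G1 CTCF peak and a late-G1 Rad21 peak. Both anchors also had to lie within 20 kb of the anchors of 1 pro-metaphase or ana/telophase loop. Of 11340 late-G1 loops, 10738 were shorter than 500 kb, 5357 of these had both proteins at both anchors, and 468 met the whole rule. They made up 8.74% of the 5357 loops, which is the background share that the rule itself sets. These 468 loops (the early loops) were thus chosen by measured values: the late-G1 loop call, the late-G1 peaks and the pro-metaphase or ana/telophase loop call. Values of those 3 kinds are given below as descriptions only. A pair of further sets of late-G1 CTCF-cohesin loops served for comparison: 3276 loops whose first match was in early G1, and 1613 loops with no match up to early G1.

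CTCF is a zinc finger protein that binds a directional DNA motif, and Rad21 is a subunit of cohesin, the ring complex that holds DNA. In the loop extrusion model, cohesin reels in DNA until CTCF halts it, so that pairs of CTCF sites become loop anchors. Extrusion from an anchor held at one end is seen in Hi-C maps as a stripe, and loops can lie inside larger loops and domains. Most CTCF and cohesin leaves chromosomes as cells enter mitosis, and loops are lost with them and rebuilt when cells divide.

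The study followed this rebuilding from pro-metaphase to late G1. G1E-ER4 is a subline of G1E, a GATA1-null proerythroblast line of mouse strain 129, and all stages came from this 1 line. Every staged group had been held with nocodazole, a drug that blocks the mitotic spindle, at 200 ng/ml for 7 to 8.5 h. Cells were sorted by stage at release in pro-metaphase (0 min), or at 25 min (ana/telophase), 60 min (early G1), 120 min (mid G1) and 240 min (late G1) after it, and asynchronous cells were added for ChIP-seq. Hi-C, which counts contacts between DNA sites, had 2 replicates per stage. Rad21 and CTCF ChIP-seq also had 2 samples per group, apart from pro-metaphase CTCF with 3.

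Each deposited list covers a whole stage with its replicates combined, so no spread between replicates could be taken and no test between stages or classes was possible. Shares are given with exact (Clopper-Pearson) 95% intervals, which cover counting error only and treat loops as separate although neighbouring loops share anchors. The lists differ in length: from pro-metaphase to late G1 they hold 84, 908, 7029, 9714 and 11340 loops. CTCF peaks numbered 11604 in pro-metaphase and 33127 to 36009 from ana/telophase on, while Rad21 peaks numbered 596, 7995, 8694, 15762 and 18958 over the 5 stages. The depth per sample is unknown, and how depth bears on the length of a list was not tested.

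Of the early loops, 467 matched an ana/telophase loop and 11 matched a pro-metaphase loop, with 10 matched at both stages. They accounted for 472 of the 908 ana/telophase loops and for 8 of the 84 pro-metaphase loops. The match was not one to one: 137 early loops shared an ana/telophase loop with another early loop, and 71 matched 2 or more ana/telophase loops. At the nearest ana/telophase loop, the anchors overlapped or touched in 352, lay 10 kb apart in 42 and 20 kb apart in 73. The 73 loops just inside the distance limit had a median size of 130 kb and a median late-G1 ratio of observed to expected contacts of 3.34. The 61 loops just outside it, at 30 kb, had medians of 140 kb and 3.38. Pro-metaphase CTCF lay at both anchors of 42.5% just inside and 52.5% just outside, and ana/telophase Rad21 at 43.8% and 50.8%. The 352 with overlapping or touching anchors had a median ratio of 5.00. The size limit removed few candidates, since 6 of 459 late-G1 CTCF-cohesin loops of 500 kb or more had been called by ana/telophase, the shortest of them at 530 kb.

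The early loops were short. Their median size was 130 kb (quartiles 90 and 170 kb, n = 468), against 160 kb (100 and 240 kb) for loops first called in early G1 and 210 kb (120 and 310 kb) for loops called later. The longest early loop spanned 450 kb and the shortest 30 kb. Loops called by ana/telophase made up 12.8% of the CTCF-cohesin loops under 100 kb (128 of 1001, interval 10.8% to 15.0%) and 11.9% of those of 100 to 190 kb (260 of 2190, 10.5% to 13.3%). At 200 to 490 kb the share was 3.69% (80 of 2166, 2.94% to 4.58%), and this interval does not overlap those of the shorter classes. Only 9 early loops were 300 kb or longer.

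**Figure D1:**
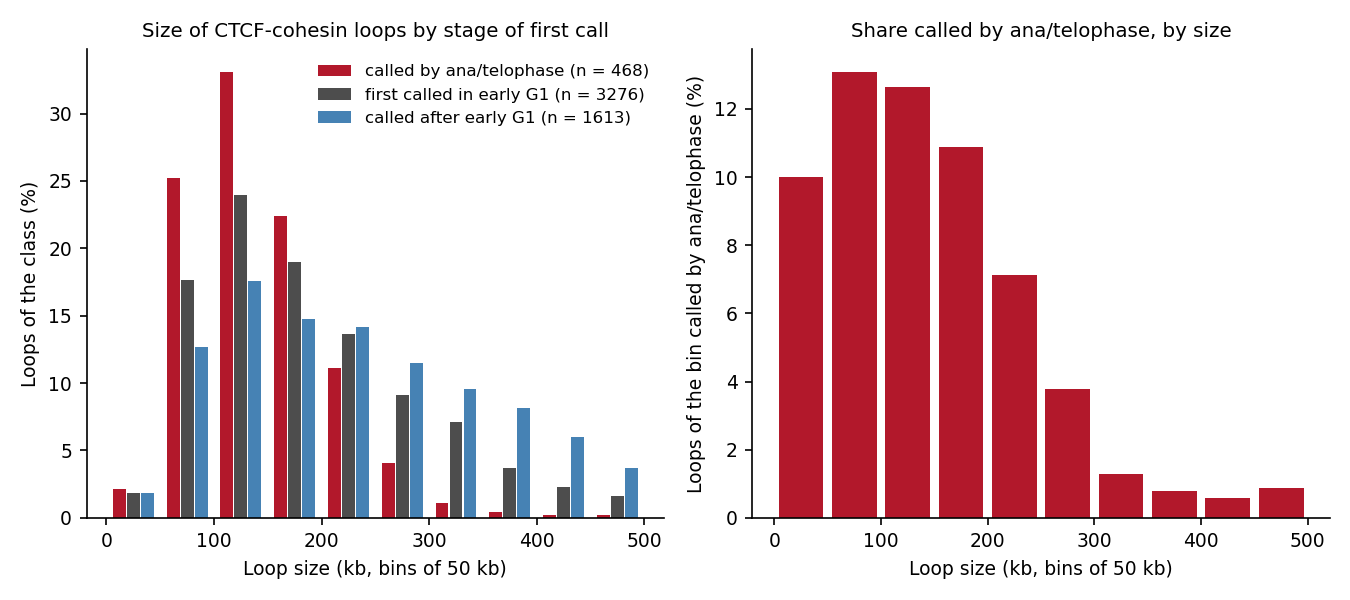
Left, share of each class of loops (y axis, percent) in bins of loop size (x axis, kb) for the 468 early loops (red), the 3276 first called in early G1 (grey) and the 1613 called later (blue). Right, share of all CTCF-cohesin loops of a bin that were called by ana/telophase: it was 13.1% in the bin that starts at 50 kb, 7.13% in the one at 200 kb and 1.27% in the one at 300 kb.

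Early loops were found on every autosome and on no X chromosome. On the X chromosome 0 of 67 CTCF-cohesin loops qualified, which allows a share of up to 5.36% by the exact interval. The ana/telophase list held 9 X-linked loops of any kind and the late-G1 list 148. Among autosomes the share ran from 3.14% on chromosome 13 (5 of 159, interval 1.03% to 7.19%) to 12.1% on chromosome 19 (24 of 199, 7.88% to 17.4%). Most autosomes could not be told apart at this number of loops.

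The anchors of the early loops were wide. An anchor spanned 30 kb in the median (mean 40.4 kb, n = 936 anchors), against 20 kb in both other classes (means 26.0 and 23.4 kb). The 410 ana/telophase loops that were the nearest match of an early loop had anchors of 20 kb in the median (mean 22.1 kb, n = 820). A wide anchor has more room for a peak, a stripe anchor or a match within 20 kb. Of loops whose 2 anchors together spanned 40 kb or less, 3.83% were early loops (103 of 2688), against 6.96% at 50 to 70 kb (145 of 2083) and 37.5% at 80 kb or more (220 of 586). Anchor width moves with most of the values that follow, and they are therefore given within classes of width as well; the part of anchor width in them beyond these classes was not tested.

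The history of the anchors began with CTCF. Of the early loops, 267 (57.1%, interval 52.4% to 61.6%) had a pro-metaphase CTCF peak at both late-G1 anchors, against 41.3% of all 5357 loops. The share was 42.4% (40.7% to 44.1%) in loops first called in early G1 and 34.4% (32.1% to 36.8%) in loops called later. A single anchor was occupied in 162 early loops (34.6%, against 43.0% of all loops) and none in 39 (8.33%, against 15.7%). By ana/telophase CTCF lay at both anchors of 447 early loops (95.5%, against 89.6% of all loops), and by early G1 at 466 (99.6%, against 97.5%). Once CTCF was called at both anchors of an early loop, it was called there in every later list in 468 of 468 loops, much as in all loops (99.7%). The last of these lists, late G1, is fixed by the rule for early loops and for all loops alike.

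Cohesin followed CTCF in these lists. In pro-metaphase, Rad21 peaks lay at both anchors of 11 early loops (2.35%, against 0.784% of all loops) and at no anchor of 362 (77.4%, against 87.3%). By ana/telophase 269 early loops had Rad21 at both anchors (57.5%, interval 52.9% to 62.0%), against 38.4% of all loops. The comparison classes stood at 41.5% (39.8% to 43.2%) and 26.5% (24.3% to 28.7%). Early-G1 Rad21 lay at both anchors of 330 early loops (70.5%, against 53.5% of all loops), and mid-G1 Rad21 at 428 (91.5%, against 87.2%). In the asynchronous list, which mixes cell cycle stages, 388 early loops had Rad21 at both anchors (82.9%, against 78.7%).

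Although every early loop but 1 was called in ana/telophase, 37 of them had no ana/telophase Rad21 peak at either anchor (7.91%, against 16.5% of all loops) and 162 had it at 1 anchor (34.6%, against 45.1%). In ana/telophase 180 early loops (38.5%, interval 34.0% to 43.0%) had CTCF at both anchors and no Rad21 peak at 1 or both of them. The share was 51.8% of all loops, and 49.0% and 61.3% in the comparison classes. Pro-metaphase CTCF and ana/telophase Rad21 at both anchors occurred together in 202 early loops (43.2%, 38.6% to 47.8%), against 24.8% (23.3% to 26.3%) and 13.1% (11.5% to 14.9%). Neither condition was met at both anchors in 134 early loops (28.6%, against 43.2% of all loops). A missing peak says only that none was called in that pooled list.

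The differences between classes were smaller when the width was held fixed. Read in windows of the same 30 kb around each loop's highest pixel, pro-metaphase CTCF was present at both ends of 49.8% of early loops (interval 45.2% to 54.4%), against 40.4% of all loops. The comparison classes had 41.7% (40.0% to 43.4%) and 35.0% (32.6% to 37.3%). Ana/telophase Rad21 in such windows was present in 52.6% of early loops (47.9% to 57.2%), against 37.6% of all loops, and in 40.4% (38.7% to 42.1%) and 27.6% (25.4% to 29.8%) of the comparison classes. The intervals of the early loops still did not overlap those of the others. The same windows held late-G1 CTCF in 96.6%, 98.0% and 97.0% of the 3 classes, and late-G1 Rad21 in 94.2%, 96.2% and 95.1%. When peaks were instead read on the ana/telophase loops' own, narrower anchors (the 410 nearest matches), 34.6% had pro-metaphase CTCF and 37.1% had ana/telophase Rad21 at both. Over all 908 ana/telophase loops, which were not selected on late-G1 peaks, the shares were 21.3% and 22.1%. The 908 include the 410, which lay near late-G1 loops chosen for having both proteins. In the 498 that were no nearest match of an early loop, the shares were 10.2% and 9.84%.

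**Figure D2:**
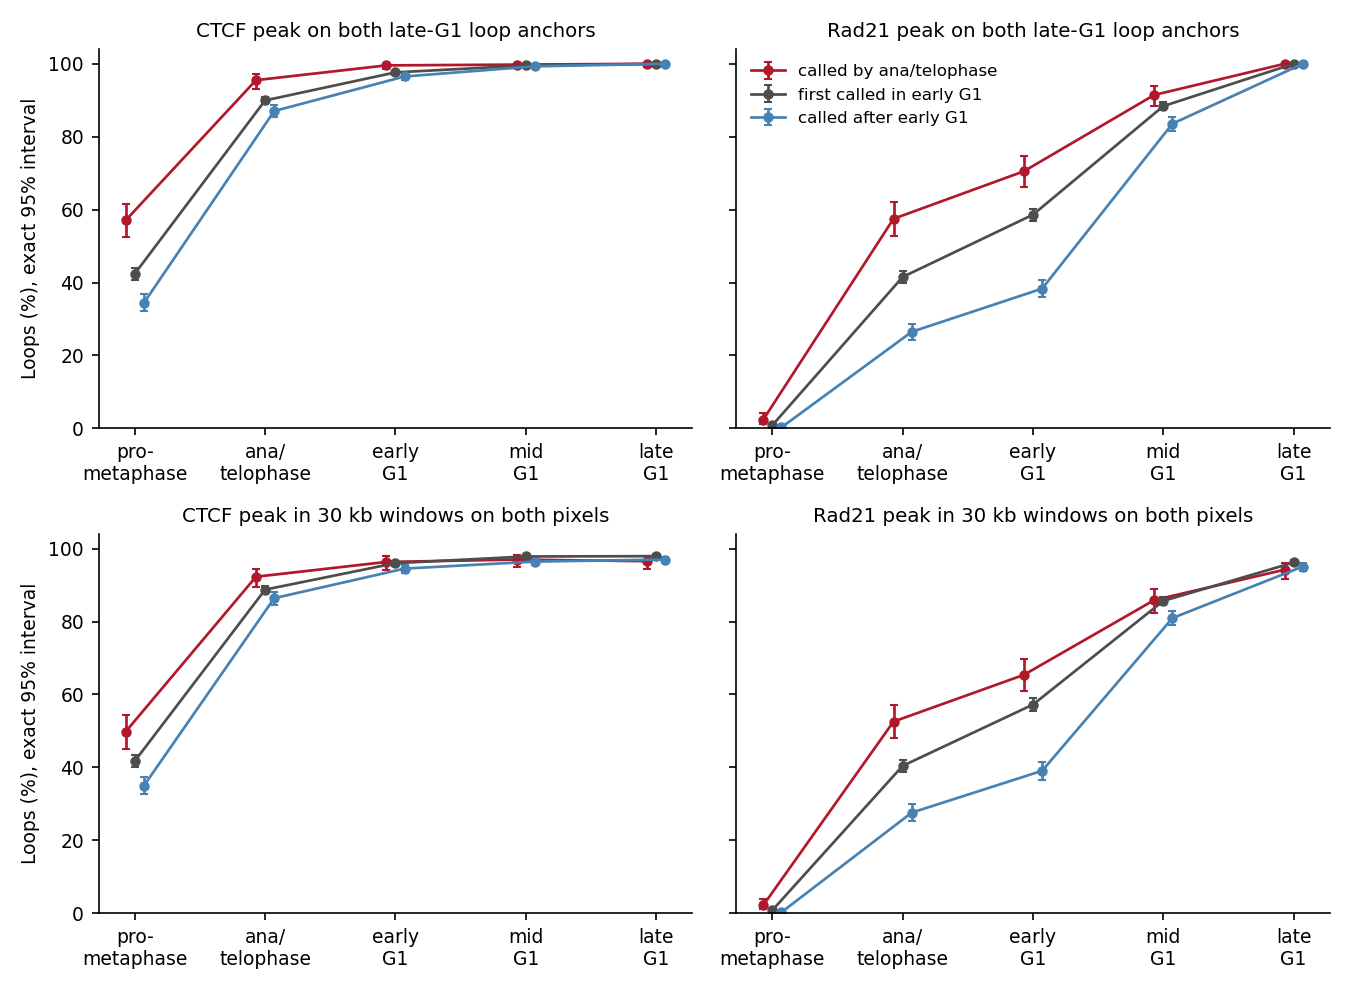
Share of loops (y axis, percent, bars show exact 95% intervals) with a CTCF peak (left) or a Rad21 peak (right) at both ends, by stage of the peak list (x axis), for the early loops (red), loops first called in early G1 (grey) and loops called later (blue). The upper panels read peaks on the late-G1 anchors and the lower panels in 30 kb windows around the highest pixel; the early loops lie above both classes for pro-metaphase CTCF and ana/telophase Rad21 in either reading, and late G1 is fixed by the rule in the upper panels.

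Within classes of width, the intervals of early loops and of those first called in early G1 mostly overlapped for pro-metaphase CTCF and ana/telophase Rad21. At 40 kb or less for both anchors together, 41.7% of 103 early loops had pro-metaphase CTCF at both anchors (interval 32.1% to 51.9%), against 39.3% (36.9% to 41.7%) of loops first called in early G1. Ana/telophase Rad21 stood at 41.7% (32.1% to 51.9%) against 36.7% (34.3% to 39.1%). At 50 to 70 kb CTCF stood at 46.2% (37.9% to 54.7%, n = 145) against 43.6% (40.9% to 46.3%), and Rad21 at 46.9% (38.6% to 55.4%) against 42.7% (40.0% to 45.4%). The intervals overlapped in these comparisons, which concern 103 and 145 early loops, so a difference was neither shown nor excluded. At 80 kb or more the intervals for CTCF did not overlap, with 71.4% (64.9% to 77.2%, n = 220) for CTCF against 53.5% (47.8% to 59.2%, n = 312). For Rad21 at this width, 71.8% (65.4% to 77.7%) compared with 61.5% (55.9% to 67.0%), and these intervals overlapped.

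Early loops had the highest share in each class of loop size. In loops of 100 to 190 kb, pro-metaphase CTCF was at both anchors of 60.4% of early loops (interval 54.2% to 66.4%), 41.4% of those first called in early G1 and 31.4% of those called later. Under 100 kb the shares were 53.1% (44.1% to 62.0%), 47.5% (43.6% to 51.4%) and 37.9%, and at 200 to 490 kb they were 52.5% (41.0% to 63.8%), 40.9% (38.1% to 43.7%) and 35.3%. The intervals of the early loops and of those first called in early G1 overlapped in the shortest and in the longest class. Ana/telophase Rad21 in loops of 200 to 490 kb was at both anchors of 61.3% of early loops (49.7% to 71.9%), against 43.4% (40.6% to 46.2%) and 31.7% (28.6% to 34.9%).

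The late-G1 peaks at the anchors were also strong in the early loops. The strongest peak on each anchor was taken, and a wide anchor has more room for peaks. The part of anchor width in these values, and in the groups ranked by them, was not tested. At the anchor with the lower value, the authors' late-G1 CTCF fold enrichment had a median of 29.1 in early loops, against 25.1 and 23.4, and that of Rad21 a median of 12.1 against 10.3 and 8.70. Pro-metaphase CTCF at both anchors went with this strength in every class: over 4 equal groups of loops ranked by late-G1 CTCF fold enrichment, lowest first, it was seen in 15.1%, 35.2%, 58.8% and 81.2% of early loops. Loops first called in early G1 had 10.3%, 30.2%, 50.5% and 75.9% in the same groups. Ana/telophase Rad21 was seen in 14.9%, 33.0%, 59.5% and 88.7% of early loops over 4 such groups ranked by late-G1 Rad21 fold enrichment, and in 9.16%, 26.3%, 47.3% and 77.0% of those first called in early G1. Early loops had the higher share in each group, but the intervals overlapped in all 4 groups for CTCF and in the lower 3 for Rad21. In the top Rad21 group they did not overlap (83.1% to 93.0% against 74.1% to 79.7%).

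**Figure D3:**
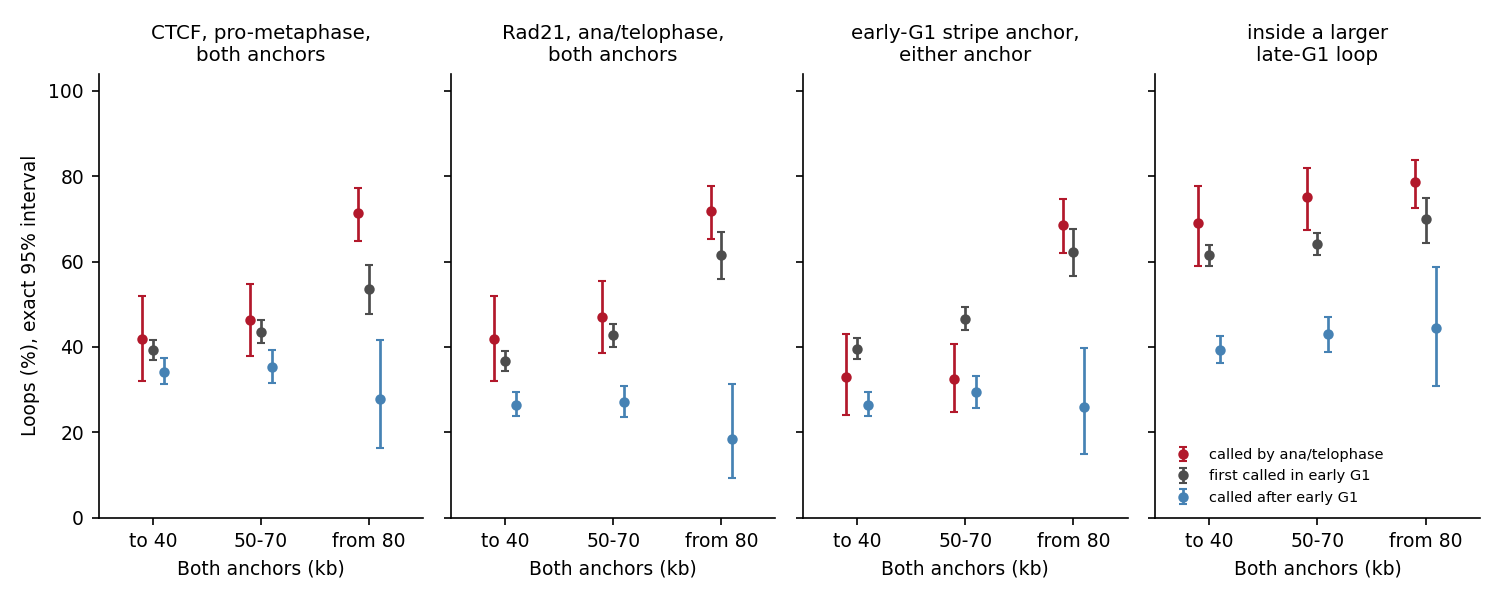
Share of loops (y axis, percent, bars show exact 95% intervals) with 4 features, by the summed width of the 2 anchors (x axis, kb), for the early loops (red), loops first called in early G1 (grey) and loops called later (blue). At 80 kb or more the early loops reach 71.4% for CTCF and 71.8% for Rad21; at 40 kb or less they overlap the grey class in both, and their share with an early-G1 stripe anchor is 33.0% against 39.6%.

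Few CTCF and Rad21 sites lay between the anchors. The median early loop had 1 late-G1 CTCF summit and 0 Rad21 summits between its anchors, against 2 and 1 in loops first called in early G1 and 3 and 1 in loops called later. No CTCF summit lay between the anchors of 178 early loops (38.0%, interval 33.6% to 42.6%), against 21.6% and 18.8%. Summits were counted between the inner edges of the anchors, so wide anchors left less room for them. Early loops were shorter and had wider anchors, and the part of size and of anchor width in these counts was not tested.

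Contact strength was followed as the ratio of observed to expected contacts that the authors' loop lists give. Of the early loops, 449 (95.9%) were matched in early G1 and 452 (96.6%) in mid G1, against 69.5% and 87.0% of all loops. Loops first called in early G1 were matched in mid G1 in 95.8%. Of the early loops, 439 were matched at every stage from ana/telophase to late G1. In these 439 the median ana/telophase ratio was 3.41 (quartiles 2.76 and 4.12). It was 4.83 (3.62 and 6.58) for early G1, 5.06 (3.82 and 7.20) for mid G1 and 4.53 (3.42 and 6.46) for late G1. The ratio was higher in early G1 than in ana/telophase in 379 of 439 loops (86.3%, interval 82.8% to 89.4%), by a median factor of 1.45. It was higher in mid G1 than in early G1 in 285 (64.9%), and lower in late G1 than in mid G1 in most, since 137 (31.2%) were higher. Mid G1 held the highest of the 4 ratios in 206 loops (46.9%) and ana/telophase in 33 (7.52%). The median ratio of all listed loops was 3.32, 3.38, 3.59 and 3.28 at these stages, over lists of very different length.

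The ratio rests on both of its terms. The median observed value was 24.1, 50.3, 56.4 and 54.8 at the 4 stages and the median expected value 7.14, 9.75, 10.1 and 10.8, on a scale that the sources used here do not define. Where several loops of a stage matched, the highest ratio was taken. In the 110 early loops with 1 match at each stage the medians were 3.12, 4.41, 4.84 and 4.42. With the nearest match in place of the highest ratio they were 3.34, 4.56, 4.77 and 4.53 in the 439 loops.

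The increase after ana/telophase was largest in loops with wide anchors. The highest ratio of several matches was used here too, and the part of that choice within classes of width was not tested. At 80 kb or more the median ratio was 3.58, 5.96, 6.58 and 6.31 (n = 210), and 96.2% were higher in early G1 than in ana/telophase. At 40 kb or less it was 3.18, 3.66, 3.80 and 3.38 (n = 91), and 73.6% were higher (interval 63.3% to 82.3%). Late-G1 ratios over all widths had a median of 4.42 in early loops, 3.92 in loops first called in early G1 and 3.44 in loops called later. At 40 kb or less the medians were 3.28, 3.56 and 3.55, and at 50 to 70 kb they were 3.70, 4.10 and 3.27. Early loops had the highest late-G1 median only at 80 kb or more, with 6.26 against 5.50 and 3.06.

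**Figure D4:**
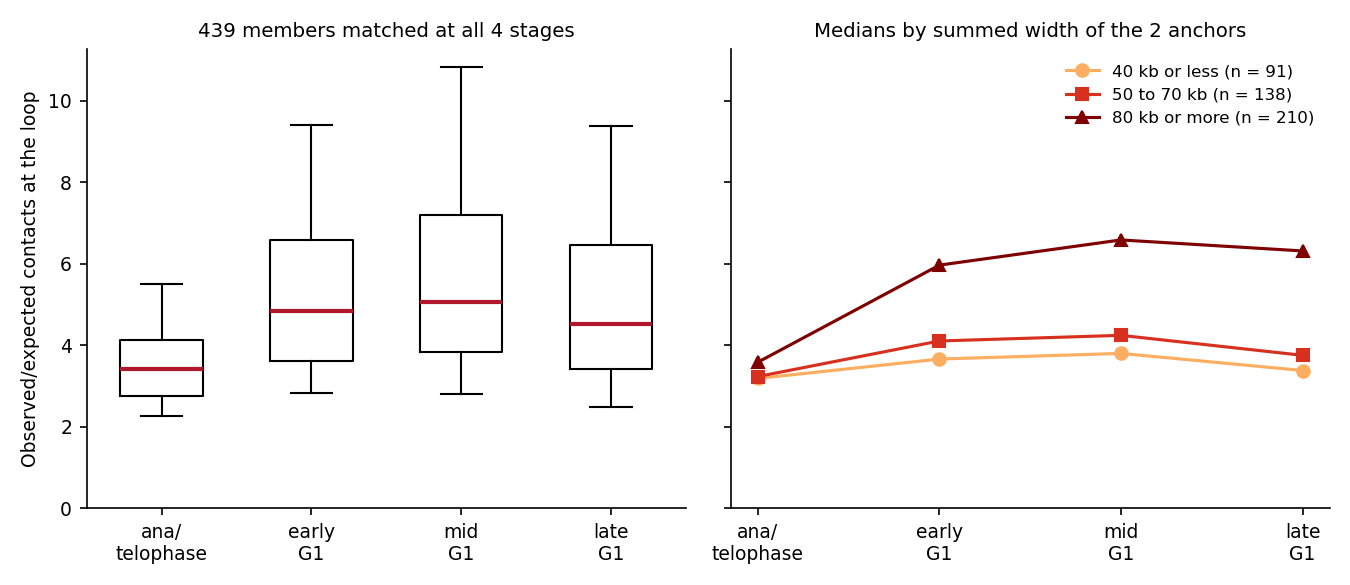
Left, ratio of observed to expected contacts (y axis) by stage (x axis) for the 439 early loops matched at all 4 stages; boxes span the quartiles, the red line is the median and whiskers run from the 5th to the 95th percentile. Right, medians of the same loops split by the summed width of the 2 anchors; the 210 loops with the widest anchors reach 6.58 in mid G1 and the 91 with the narrowest 3.80.

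Single loops showed the range of these courses; positions are 1-based in build mm9. The highest late-G1 ratio, 14.5, belonged to a 190 kb loop on chromosome 15 between anchors at 102770001 to 102870000 and 102920001 to 103030000. Its ratio was 6.74 in ana/telophase, 12.1 in early G1 and 12.2 in mid G1, and both anchors had CTCF from pro-metaphase and Rad21 from ana/telophase on. A 250 kb loop on chromosome 4 (88510001 to 88540000 and 88740001 to 88800000) was among the highest in both ana/telophase, at 8.09, and late G1, at 13.95. Its downstream anchor touched 10 late-G1 loops, more than any other anchor of an early loop, and 4 smaller late-G1 loops lay inside it.

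The highest ana/telophase ratio, 13.3, belonged to a 140 kb loop on chromosome 1 with anchors at 157930001 to 157970000 and 158100001 to 158190000. This loop also had the highest pro-metaphase ratio of any early loop, 7.40, followed by 12.0, 11.8 and 10.6 in early, mid and late G1. Both of its anchors carried CTCF in pro-metaphase, and 1 of them Rad21. Its highest ratio was thus that of ana/telophase, as in 33 of the 439 loops matched at all stages.

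The 11 early loops with a pro-metaphase match had a median pro-metaphase ratio of 4.58 (lowest 2.62, highest 7.40), and they rest on 8 pro-metaphase loops. Of these 11, 5 had CTCF and 1 had Rad21 at both anchors in pro-metaphase. The latter was a 120 kb loop on chromosome 1 (193770001 to 193830000 and 193870001 to 193940000) with ratios of 5.83, 3.65, 6.83, 6.02 and 5.00 from pro-metaphase to late G1. A 240 kb loop on chromosome 15 (102810001 to 102830000 and 103060001 to 103090000) had 4.95 and 5.18 in pro-metaphase and ana/telophase and 2.63, 2.82 and 3.26 in the 3 G1 stages. The 30 kb loop on chromosome 5 (130280001 to 130300000 and 130320001 to 130370000), the shortest early loop, was the 1 matched in pro-metaphase alone among the 2 mitotic stages. It had no CTCF or Rad21 peak at either anchor in pro-metaphase.

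The largest gain from ana/telophase to late G1 was 3.65-fold, from 3.46 to 12.6, in a 160 kb loop on chromosome 11 (11680001 to 11810000 and 11840001 to 11890000). Close behind was a 160 kb loop on chromosome 1 (158810001 to 158910000 and 158970001 to 159020000), with 2.93 in ana/telophase and 10.0 in late G1. The lowest ratio of late G1 to ana/telophase, 0.362, belonged to an 80 kb loop on chromosome 9 (108740001 to 108770000 and 108810001 to 108840000) with 7.03 in ana/telophase, 3.84 in early G1 and 2.54 in late G1. Rad21 was called at 1 of its anchors in ana/telophase and at none in mid G1. A 100 kb early loop with adjoining or overlapping anchors shared the same matches up to mid G1, so the pair is not independent.

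Among the longest early loops, a 400 kb loop on chromosome 14 (66970001 to 67040000 and 67390001 to 67420000) had a ratio of 4.80 in ana/telophase and 9.82 in early G1 and enclosed 8 smaller late-G1 loops. A 390 kb loop on chromosome 1 (88500001 to 88580000 and 88920001 to 88970000) went from 4.03 to 9.58 in late G1 and enclosed 9. The 450 kb loop on chromosome 9 (106790001 to 106810000 and 107230001 to 107250000) met its ana/telophase match only at the 20 kb limit, and its ratio was 5.42 in ana/telophase and 3.22 in late G1.

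Stripes were taken at an upstream anchor from the horizontal lists and at a downstream anchor from the vertical lists. In ana/telophase, 69 early loops (14.7%, interval 11.7% to 18.3%) had a stripe anchor at either anchor, against 6.78% of all loops. The comparison classes had 7.23% (6.37% to 8.18%) and 3.53% (2.69% to 4.55%). At 40 kb or less for both anchors together, 8.74% of early loops (4.07% to 15.9%) had one. Loops first called in early G1 had 6.50% (5.35% to 7.82%). At 50 to 70 kb the shares were 12.4% (7.53% to 18.9%) and 7.64% (6.27% to 9.18%). The intervals overlapped in both of these width classes. At 80 kb or more the shares were 19.1% (14.1% to 24.9%) and 9.29% (6.31% to 13.1%), without overlap. In pro-metaphase 9 early loops had a stripe anchor at either anchor (1.92%, against 0.429% of all loops), from a list of 39 stripes. In early G1 the number was 232 (49.6%, 45.0% to 54.2%), against 39.9% of all loops, 44.7% (42.9% to 46.4%) of loops first called in early G1 and 27.5% (25.4% to 29.8%) of loops called later. It was 229 in late G1 (48.9%, against 40.6% of all loops), and the stripe lists themselves held 307 stripes in ana/telophase, 1753 in early G1 and 1745 in late G1. Both the number of early loops with a stripe anchor and the length of the lists increased between ana/telophase and early G1. How list length bears on these shares was not tested.

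Stripe anchors mostly persisted, as they did over all loops. Of the 69 early loops with one in ana/telophase, 64 (92.8%, interval 83.9% to 97.6%) had one in early G1, against 91.5% of all loops with one. Of the 232 with one in early G1, 225 (97.0%, 93.9% to 98.8%) had one in late G1, against 98.0%. In ana/telophase 46 early loops had a vertical stripe at the downstream anchor (9.83%, against 3.83% of all loops). A horizontal stripe at the upstream anchor was found in 25 (5.34%, against 3.12%). In early G1 the numbers were 153 (32.7%, against 22.2%) and 127 (27.1%, against 22.7%). Both anchors had stripes in 48 early loops in early G1 (10.3%, 7.66% to 13.4%), against 5.56% (4.80% to 6.40%) and 2.17% in the comparison classes.

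No stripe in the lists was shorter than 130 kb, and stripes were fewer at short loops. Early-G1 stripe anchors were found at 28.9% of early loops under 100 kb (interval 21.2% to 37.6%), against 13.0% (10.5% to 15.9%) of loops first called in early G1. At 100 to 190 kb the shares were 51.9% (45.7% to 58.1%) and 37.7% (35.2% to 40.3%), and at 200 to 490 kb they were 75.0% (64.1% to 84.0%) and 69.0% (66.4% to 71.6%). Within classes of anchor width the order differed: at 40 kb or less for both anchors together 33.0% of early loops had an early-G1 stripe anchor (24.1% to 43.0%) against 39.6% (37.2% to 42.1%), with overlapping intervals. At 50 to 70 kb the early loops had the lower share, 32.4% (24.9% to 40.7%) against 46.6% (43.9% to 49.3%). At 80 kb or more it was 68.6% against 62.2%, with overlapping intervals.

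**Figure D5:**
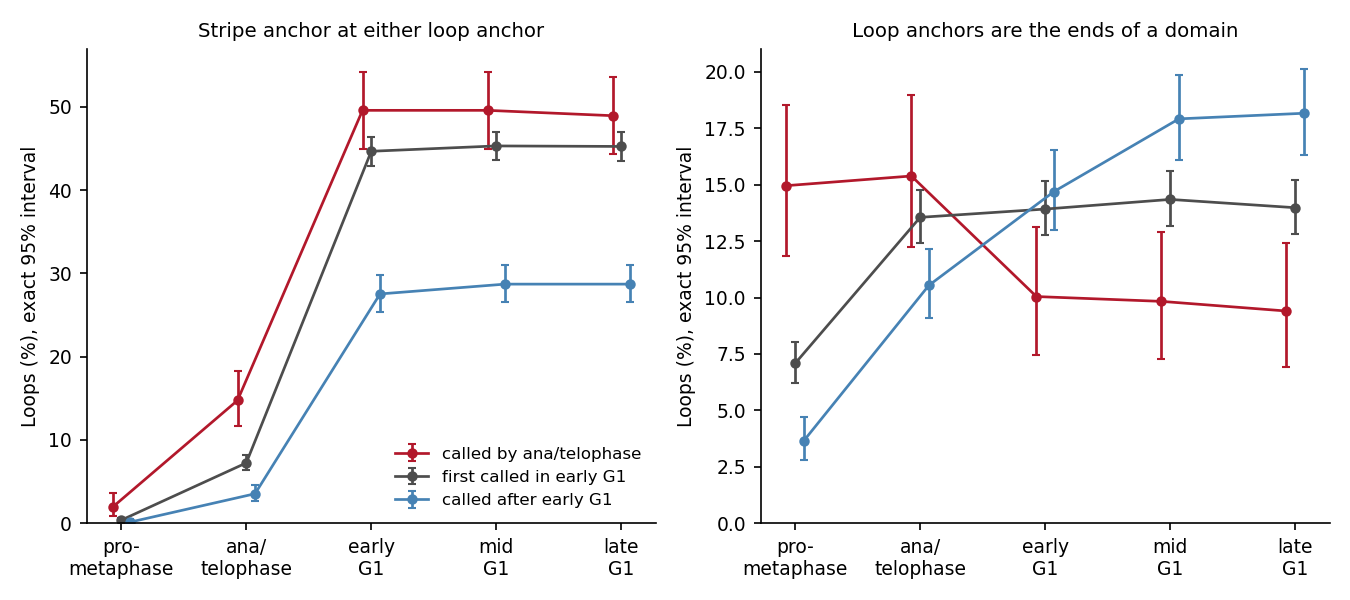
Share of loops (y axis, percent, bars show exact 95% intervals) with a stripe anchor at either anchor (left) or with anchors at the 2 ends of a domain (right), by stage (x axis), for the early loops (red), loops first called in early G1 (grey) and loops called later (blue). Stripes at early loops go from 14.7% in ana/telophase to 49.6% in early G1; domain ends at early loops go from 15.0% in pro-metaphase to 9.40% in late G1, while the other classes go up.

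Most early loops were nested. In late G1, 353 of them (75.4%, interval 71.3% to 79.3%) lay inside a loop at least 20 kb longer, against 57.6% of all loops. Inside 2 or more such loops lay 205 early loops (43.8%, against 29.8% of all loops). The comparison classes had 63.3% (61.7% to 65.0%) and 40.9% (38.4% to 43.3%) inside a larger loop. Fewer early loops enclosed a smaller loop: 210 (44.9%, 40.3% to 49.5%), against 56.6% of all loops, 59.0% and 55.1%. Within 200 to 490 kb, 65.0% of early loops lay inside a larger loop (53.5% to 75.3%), against 49.5% (46.7% to 52.3%) and 29.4% (26.4% to 32.6%). Under 100 kb the values of the early loops and of those first called in early G1 overlapped, with 75.0% (66.6% to 82.2%) and 76.0% (72.5% to 79.3%). At 40 kb or less for both anchors together the shares were 68.9% (59.1% to 77.7%) and 61.5% (59.1% to 63.9%), with overlapping intervals. At 50 to 70 kb they were 75.2% (67.3% to 82.0%) and 64.0% (61.4% to 66.6%), without overlap. At 80 kb or more they were 78.6% (72.6% to 83.9%) and 69.9% (64.4% to 74.9%), with overlap.

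Early loops lay inside other early loops in 74 cases, and the deepest chain had 4 levels. It lay on chromosome 11, with an outer loop of 270 kb (69490001 to 69520000 and 69750001 to 69770000) and loops of 200, 120 and 70 kb inside. The outer pair shared an ana/telophase ratio of 5.51 and the inner pair one of 3.05, because each pair matched the same strongest ana/telophase loop. A chain of 3 levels on chromosome 2 (outermost anchors 103570001 to 103610000 and 103820001 to 103850000) had sizes of 260, 160 and 100 kb and late-G1 ratios of 5.13, 3.89 and 6.30. One on chromosome 3 (outermost anchors 96080001 to 96090000 and 96320001 to 96350000) had sizes of 260, 220 and 160 kb. Its ana/telophase ratios of 5.44, 5.05 and 2.58 gave way to late-G1 ratios of 2.36, 3.78 and 6.09, so the order of the 3 loops turned around.

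Anchors were shared with other late-G1 loops in 448 early loops (95.7%), about as often as in loops first called in early G1 (95.5%), and at both anchors in 328 (70.1%, interval 65.7% to 74.2%, against 65.2%, 63.6% to 66.9%). After the chromosome 4 anchor, the most shared lay on chromosome 11 (117160001 to 117260000) and on chromosome 13 (22100001 to 22130000), each with 9 late-G1 loops. They belonged to 2 early loops and 1.

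Domain ends were less frequent at early loops in late G1 than in pro-metaphase. A domain is a stretch of DNA that contacts itself more than its surroundings, and a loop was counted here if its anchors lay within 20 kb of the 2 ends of 1 domain. In pro-metaphase 70 early loops had such anchors (15.0%, interval 11.8% to 18.5%), against 6.74% of all loops, 7.08% (6.23% to 8.01%) of loops first called in early G1 and 3.66% (2.80% to 4.69%) of loops called later. In ana/telophase it was 72 (15.4%, against 12.8% of all loops). In late G1 it was 44 (9.40%, 6.91% to 12.4%), against 14.8% of all loops, 14.0% (12.8% to 15.2%) and 18.2% (16.3% to 20.1%). The pro-metaphase and late-G1 intervals of the early loops overlapped slightly. From pro-metaphase to late G1 the lists held 2509, 5531, 9210, 10286 and 10899 domains. How list length bears on the shares at domain ends or inside domains was not tested. No domain in the lists was shorter than 160 kb, so loops under 100 kb could hardly take part. At 200 to 490 kb the early loops went from 30.0% (20.3% to 41.3%) in pro-metaphase to 20.0% (11.9% to 30.4%) in late G1, and those first called in early G1 from 11.0% (9.28% to 12.9%) to 27.9% (25.4% to 30.5%).

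Of the 70 early loops at the ends of a pro-metaphase domain, 19 (27.1%, interval 17.2% to 39.1%) lay at the ends of a late-G1 domain, against 33.2% (28.4% to 38.4%) of all loops at pro-metaphase domain ends. In late G1, 65 of the 70 lay inside a domain (92.9%) and 50 inside a larger loop (71.4%), near the 87.0% and 75.4% of all early loops. Over all early loops, 47.4% lay inside a pro-metaphase domain (42.8% to 52.1%), against 31.8% (30.2% to 33.5%) and 17.4% (15.5% to 19.3%) in the comparison classes. In late G1 the 3 shares were 87.0%, 88.8% and 84.7%. With both anchors together at 40 kb or less, 10 of 103 early loops lay at pro-metaphase domain ends and 3 at late-G1 domain ends. Loops first called in early G1 had 5.57% and 11.7%. The late-G1 intervals, 0.605% to 8.28% and 10.2% to 13.4%, did not overlap, while the pro-metaphase ones did. At 50 to 70 kb the pro-metaphase shares were 12.4% (7.53% to 18.9%) and 6.97% (5.67% to 8.46%), with overlap. The late-G1 shares at this width were 4.14% (1.53% to 8.79%) and 15.7% (13.8% to 17.8%), without overlap. At 80 kb or more, the 220 early loops had 19.1% (14.1% to 24.9%) in pro-metaphase and 15.9% (11.3% to 21.4%) in late G1. Loops first called in early G1 had 15.4% (11.6% to 19.9%) and 18.3% (14.1% to 23.0%), with overlapping intervals at both stages.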

How the data were processed

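Hi-C, CTCF ChIP-seq and Rad21 ChIP-seq lists were used, and the sample titles gave assay, target and stage. The submitters' processing notes name Bowtie2 and HiC-Pro for Hi-C, and MACS2 2.1.0, bedtools 2.27.1, SAMtools 1.7 and Bowtie 0.12.7 for ChIP-seq, with build mm9. The loop, stripe and domain callers were not given in the sources used here. Per the peak names, the 12 peak lists come from merged, downsampled replicates, and they hold the authors' fold enrichment (a ratio), −log10 p and −log10 q. The 5 loop lists hold the authors' observed signal and p-value beside an expected value, per the file headers. The 10 stripe lists hold the authors' observed/expected ratio, and the 5 domain lists hold deposited starts and ends.

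Overlaps of at least 1 bp, anchor distances and shares were computed in Python 3.11.15 (NumPy 2.4.6, pandas 2.3.3, SciPy 1.17.1, with Matplotlib 3.10.9 for the plots). The interval functions passed 4 of 4 tests on simulated data against bedtools 2.31.1. Loop size was the distance between the 10 kb bins of the highest pixel. A loop's first stage was the earliest with a match, and of several matches the highest ratio was used. Stripe anchors had to overlap a loop anchor. The members, the comparison classes and the rule for named loops (highest, longest, shortest, most changed, most shared and nested) were chosen with earlier results of these data known. No test was run, because the lists pool the replicates. Alternatives covered match distance, peak and loop thresholds, peak placement, stripe and domain distance and one match per loop. Reading peaks on other anchors or in 30 kb windows, narrow anchors, overlapping anchors and autosomes alone were tried only after seeing the data. Capture-C, RNA polymerase II and input data were not analysed here. Genes and sequences in the anchors are not given, because the reference at hand is of another build.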

Additional observations from a re-analysis of the deposited data

How the results depend on the processing

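Over 17 settings (12 of them planned) and 9 results, 107 values were recomputed. Of these, 86 stayed within the interval of the reported value, or within 1.5 times the reported number of loops, and 21 moved. The 86 include values that could hardly change. No early loop lay on the X chromosome, so autosomes alone kept the same 468 loops and could alter only their share. The ana/telophase list alone kept 467. The share of loops called by ana/telophase was 7.37% with anchors within 10 kb, 11.4% within 40 kb, 7.56% with one late-G1 loop per earlier loop and 6.33% with overlapping anchors. Overlapping anchors also gave 61.9% for pro-metaphase CTCF, 62.8% for ana/telophase Rad21, an early-G1 ratio of 5.10 and 54.9% for early-G1 stripes. Peaks on the ana/telophase loops' own anchors gave 34.6% for CTCF and 37.1% for Rad21, and 30 kb windows gave 49.8% and 52.6%. With 2 anchors together of 40 kb or less, 103 loops remained (3.83%), with 41.7% for CTCF, 41.7% for Rad21, a ratio of 3.64, 33.0% for stripes, 68.9% inside a larger loop and 2.91% at late-G1 domain ends. Domain ends within 10 kb gave 6.84%. The causes of these shifts were not tested. The median size moved in none of its 11 alternatives. No paired analysis was possible because the lists pool the replicates. Depth per sample is unknown, so a loop or peak not called at a stage cannot be told from one below that stage's detection.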
